A study of Mus musculus with 16 samples.

Results

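The data described here are the ATAC-seq peaks around 6 mouse genes, Oprm1, Ambp, Gas6, Vstm2b, Akap9 and Pepd, in pancreatic ductal adenocarcinoma (PDAC) cells with Smad4 off or restored. The genes were listed as loci that lose many peaks on restoration. The counts below come from the same data, so they repeat that choice and do not test it. With all samples fitted, Oprm1, Vstm2b, Ambp and Gas6 met the description in these counts, and Akap9 and Pepd did not. The Gas6 count fell when most single samples were left out, as given below. ATAC-seq counts the cuts a transposase makes in open chromatin. A peak was assigned to the gene whose transcription start site (GENCODE vM21 basic, protein-coding) was nearest to the peak's midpoint, within 100 kb. This gave 74 peaks of the 136630 nuclear peaks: 19 for Oprm1, 13 for Vstm2b, 13 for Pepd, 10 for Ambp, 10 for Gas6 and 9 for Akap9. The genes were chosen for their change on restoration, so values of that change are given as a description and carry no test. The organ differences, averaged over both Smad4 states, did not enter the choice and are tested peak by peak. Counts of them over the 74 peaks are not independent of the choice, since lost peaks of the whole table were more often higher in liver.

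All 16 samples came from KC-shSmad4 tumor cells, which carry, among other alleles, Ptf1a-Cre, a reverse tetracycline transactivator linked to the reporter mKate2 and a doxycycline (Dox)-inducible hairpin against Smad4 linked to GFP. Ptf1a-Cre is active in the pancreatic lineage. Dox holds Smad4 off, and its withdrawal restores the gene from its own locus. Cell lines derived from primary tumors of male mice, transduced with luciferase, were transplanted into female Foxn1nu mice aged 6 to 8 weeks, which lack mature T cells and keep other immune cells. The pancreas received 100000 cells, the spleen (for the liver) 400000 cells, with the spleen then removed, and the tail vein (for the lungs) 250000 cells. Mice stayed on Dox (Panc_OFF, n = 3; Liv_OFF, n = 2; Lung_OFF, n = 3) or were taken off it after 4, 5 or 6 weeks in pancreas, liver and lungs (Panc_ON, n = 3; Liv_ON, n = 2; Lung_ON, n = 3) and were kept for 14 more days. Each sample was 60000 sorted mKate2-positive cells of a separate mouse. Organ, route, cell number and growth time go together in this design and cannot be told apart. ATAC-seq does not measure the Smad4 transcript, so the labels were not checked against the targeted gene.

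SMAD4 is the shared partner of the SMAD proteins that carry signals of the TGFβ family from the cell surface to the genome, where their complex regulates transcription. The paper reports that Smad4 status had only a limited effect on accessibility in these tumors. Oprm1 encodes the mu opioid receptor, a G-protein-coupled receptor best known from neurons. Ambp encodes a precursor that is cut into alpha-1-microglobulin and bikunin, both secreted mainly by the liver. Gas6 encodes a secreted ligand of the receptor tyrosine kinases Tyro3, Axl and Mertk. Akap9 encodes a large scaffold that anchors protein kinase A at the Golgi apparatus and the centrosome. Pepd encodes prolidase, which cleaves dipeptides that end in proline or hydroxyproline and so serves collagen turnover. Vstm2b encodes a transmembrane protein with a V-set immunoglobulin domain.

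The sequences of the peak with the lowest averaged restoration fold of each gene are shown first. Only peaks with a mean normalized count of at least 20 were considered. The values below turn on these 6 elements. Each is the central stretch of up to 300 bases (the whole peak for Gas6), on the plus strand of GRCm38/mm10. Capitals mark matches on either strand to GTCTG, the core of the SMAD-binding element (read as CAGAC on the other strand), and to TGANTCA, the AP-1 motif.

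Oprm1 peak, 38.7 kb downstream of the start, chr10:6827427-6827726: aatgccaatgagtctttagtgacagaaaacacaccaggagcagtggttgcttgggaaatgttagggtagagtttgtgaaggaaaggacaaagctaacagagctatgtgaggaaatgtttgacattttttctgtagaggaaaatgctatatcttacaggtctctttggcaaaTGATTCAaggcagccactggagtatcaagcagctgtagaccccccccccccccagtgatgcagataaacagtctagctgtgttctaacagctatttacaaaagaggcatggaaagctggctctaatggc
Ambp peak, 13.6 kb downstream of the start, chr4:63140402-63140701: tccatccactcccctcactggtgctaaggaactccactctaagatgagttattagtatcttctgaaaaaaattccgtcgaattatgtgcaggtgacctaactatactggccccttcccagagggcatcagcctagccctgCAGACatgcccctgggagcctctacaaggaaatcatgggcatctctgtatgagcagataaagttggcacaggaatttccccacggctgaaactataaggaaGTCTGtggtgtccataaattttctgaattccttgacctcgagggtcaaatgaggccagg
Gas6 peak, 22.0 kb downstream of the start, chr8:13472366-13472626: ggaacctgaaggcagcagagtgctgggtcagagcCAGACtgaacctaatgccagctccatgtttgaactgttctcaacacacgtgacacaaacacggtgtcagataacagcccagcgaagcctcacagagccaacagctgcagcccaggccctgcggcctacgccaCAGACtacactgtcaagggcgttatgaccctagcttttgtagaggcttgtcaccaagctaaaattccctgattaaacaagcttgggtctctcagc
Vstm2b peak, 98.3 kb upstream of the start, chr7:40799846-40800145: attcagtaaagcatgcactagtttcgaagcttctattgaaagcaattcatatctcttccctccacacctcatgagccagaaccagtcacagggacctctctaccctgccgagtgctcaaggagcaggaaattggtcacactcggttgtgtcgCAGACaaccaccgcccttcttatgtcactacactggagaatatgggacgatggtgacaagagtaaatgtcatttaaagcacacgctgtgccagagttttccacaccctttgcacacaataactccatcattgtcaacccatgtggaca
Akap9 peak, 76.8 kb downstream of the start, chr5:4004906-4005205: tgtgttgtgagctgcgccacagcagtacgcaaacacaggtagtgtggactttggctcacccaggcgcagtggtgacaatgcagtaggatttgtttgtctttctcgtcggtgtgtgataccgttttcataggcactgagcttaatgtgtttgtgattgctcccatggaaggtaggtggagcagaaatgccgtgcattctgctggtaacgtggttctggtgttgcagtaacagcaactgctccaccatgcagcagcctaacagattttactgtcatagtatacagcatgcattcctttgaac
Pepd peak, 6.1 kb downstream of the start, chr7:34918334-34918633: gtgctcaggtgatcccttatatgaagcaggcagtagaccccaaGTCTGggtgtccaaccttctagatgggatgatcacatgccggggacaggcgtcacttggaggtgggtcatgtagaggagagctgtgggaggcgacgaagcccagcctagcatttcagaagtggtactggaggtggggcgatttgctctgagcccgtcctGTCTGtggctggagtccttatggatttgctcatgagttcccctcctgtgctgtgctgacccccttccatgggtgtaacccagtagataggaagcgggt

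The Oprm1, Gas6, Akap9 and Pepd elements are in introns, and those of Ambp and Vstm2b are intergenic. Over their whole width they held between 1 and 6 matches to the SMAD letters, 6 of them in the Pepd peak of 1721 bp. The Oprm1 and Pepd peaks held 1 AP-1 match each and the other 4 held 0. These letters are common: 75.3% of all nuclear peaks held the SMAD letters and 51.4% the AP-1 motif.

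Vstm2b had a promoter peak called lower on restoration. Its RefSeq promoter (GRCm38.p6), the 250 bases before the annotated start, held 2 matches to the SMAD letters, and 49.6% of 32851 RefSeq promoters of 300 bases held at least 1.

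Vstm2b promoter, plus strand, chr7:40899028-40899277: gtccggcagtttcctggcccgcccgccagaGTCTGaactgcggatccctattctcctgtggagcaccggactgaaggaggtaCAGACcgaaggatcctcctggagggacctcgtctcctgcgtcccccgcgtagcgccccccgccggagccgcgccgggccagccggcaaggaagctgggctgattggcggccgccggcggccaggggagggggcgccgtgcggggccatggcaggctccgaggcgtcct

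A peak was called higher or lower where its log2 fold in limma reached 0.58 in size and its p, adjusted over all nuclear peaks, was no more than 0.1. Folds are on the log2(normalized count + 1) scale. Averaged over organs, 30 of the 74 peaks were called lower on restoration (40.5%, beside 3% of all nuclear peaks) and 1 was called higher (beside 3.61%). Oprm1 had 11 peaks called lower of 19, Vstm2b 6 of 13, Ambp 5 of 10, Gas6 5 of 10, Pepd 2 of 13 and Akap9 1 of 9. Of 17815 genes with a peak, 29 had at least 5 such peaks, Oprm1 ranked second after Gli2 with 16, Vstm2b shared rank 10 with the other genes at 6 peaks, and Ambp and Gas6 shared rank 19. Akap9 and Pepd go against the description of losing many peaks: 1887 genes had 1 such peak and 399 had 2. Counts by edgeR on the recovered reads were 10, 6, 5, 5, 2 and 1 for Oprm1, Vstm2b, Ambp, Gas6, Pepd and Akap9.

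**Figure D1:**
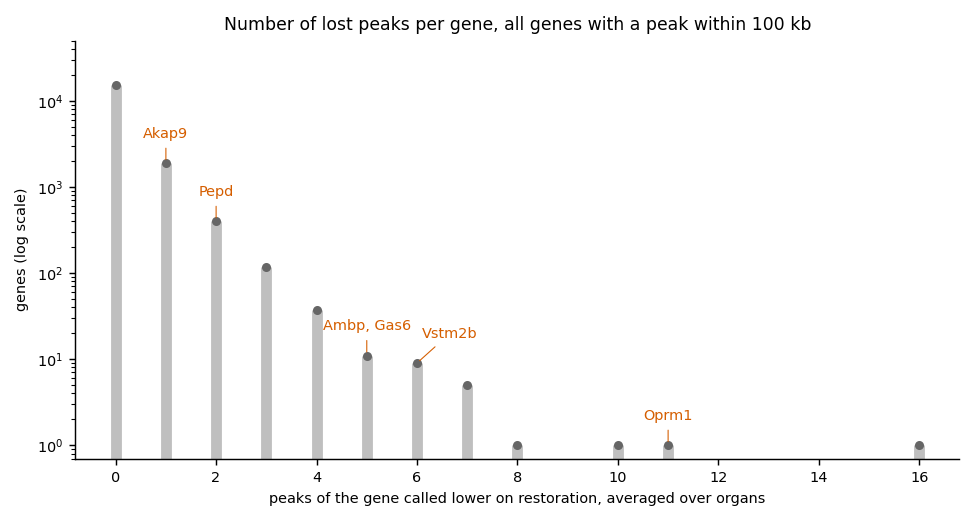
Number of genes (log axis) by how many of their peaks were called lower on restoration, averaged over organs, with the 6 genes named. Oprm1 stands at 11 peaks and Gli2 at 16, while Akap9 stands with the 1887 genes that had 1 peak and Pepd with the 399 that had 2.

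The samples held 22.5 to 37.5 M reads in nuclear peaks, with a median of 36 to 76 reads per peak, so that a peak at a normalized count of a few units rests on few reads. A pair of libraries stood apart from their replicates. The chi-square per degree of freedom was 17.9 and 19.8 between Lung_OFF replicate 1 and its replicates, 14.9 and 22 between Panc_ON replicate 3 and its replicates, and 3.72 to 8.74 between the other pairs. Summed counts at peaks nearest the start sites of marker genes were 8370 to 21071 for the tumor epithelium list (peaks for 6 of 6 genes). They were 220 to 796 for hepatocytes (4 of 6), 226 to 490 for lung epithelium (3 of 4), 357 to 596 for acinar cells (4 of 4) and 28 to 124 for leukocytes (1 of 4, Ptprc). Fibroblast markers stood at 852 to 2680 (4 of 4) and neuronal markers at 651 to 1580 (4 of 4). The endothelial list (4 of 4) stood at 869 in Lung_OFF replicate 1 and at 78.2 to 304 in the other 15 samples. Of these lists, averaged restoration calls touched 1 epithelial peak (Cdh1, lower) and 2 acinar peaks (Cela1, lower, and Prss2, higher). By organ, 1 hepatocyte peak was called in pancreas and 1 acinar peak in liver. Some sums did not overlap between Smad4 states (OFF, then ON). Pancreas ones were endothelial (178 to 218, 265 to 304) and hepatocyte (331 to 389, 220 to 300). Liver ones were epithelial (20074 to 21071, 15804 to 19492), hepatocyte (770 to 796, 666 to 758) and fibroblast (852 to 899, 911 to 998). Lung ones were lung epithelium (226 to 239, 330 to 443) and acinar (357 to 406, 414 to 506). The part of other cells in the results was not tested, and in bulk samples fewer cells of a type cannot be told apart from less signal per cell.

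Oprm1 lost accessibility across a region that reached from 44.1 kb upstream to 89.8 kb downstream of the start. The lowest fold among peaks with a mean normalized count of at least 20 was at the intronic peak chr10:6827016-6828137. Its normalized count was 127, 155 and 124 in Panc_OFF against 48.9, 48.3 and 59.8 in Panc_ON, and 199 and 163 in Liv_OFF against 44.3 and 75.2 in Liv_ON. In the lungs it was 143, 151 and 211 on Dox and 93.2, 65.2 and 43.9 after withdrawal. Every restored sample lay below every Smad4 OFF sample of its organ, with log2 folds of −1.35, −1.62 and −1.35 in pancreas, liver and lungs and −1.44 (SE 0.18) averaged. The level did not differ between organs beyond the spread: liver minus lungs was −0.02 (SE 0.23, adjusted p = 0.95).

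The Oprm1 peak nearest the start, 15.2 kb downstream at chr10:6803662-6804335, had its lowest fold in the pancreas. It counted 104, 111 and 130 in Panc_OFF and 33.8, 23.5 and 11.5 in Panc_ON, a log2 fold of −2.39. In the liver, 82.7 and 80.8 stood against 53.6 and 96.5, so the Smad4 states overlapped. In the lungs, 33.1, 60.9 and 35.3 stood against 19.1, 30.7 and 16.8. The peak was higher in liver than in lungs by 1.33 (SE 0.30, adjusted p = 0.00131).

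Position split the organ pattern of Oprm1. All 8 upstream peaks were called lower in liver than in pancreas (beside 36.6% of all peaks). Of these, 5 were lower in liver than in lungs (beside 29.1%). The most marked by p, chr10:6685362-6686392, 72.6 kb upstream, counted 293, 255 and 245 in Panc_OFF and 107, 103 and 205 in Panc_ON. The lungs had 413, 221 and 326 on Dox and 284, 228 and 190 after withdrawal. The liver had 77.8, 58.5, 83.9 and 43.7 over both states, below every sample of the other organs, and liver minus lungs was −2.05 (SE 0.24, adjusted p = 6.17e-06). Of the 11 downstream peaks, 7 were called higher and 1 lower in liver than in lungs (beside 23.5% and 29.1%), with a median of 1.07. The peak 34.1 kb downstream, at chr10:6822615-6823196, was high in the liver alone: 45.7, 124, 48.9 and 89.4 there against 0.889 to 11.2 in the 12 other samples (liver minus lungs 3.75, SE 0.50, adjusted p = 1.82e-05). That peak and the split by position were singled out after the values were seen. Losses fell on both sides, at 3 upstream and 8 downstream peaks. The 11 became 6 without Liv_ON replicate 1 and were 8 to 11 without any other sample.

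**Figure D2:**
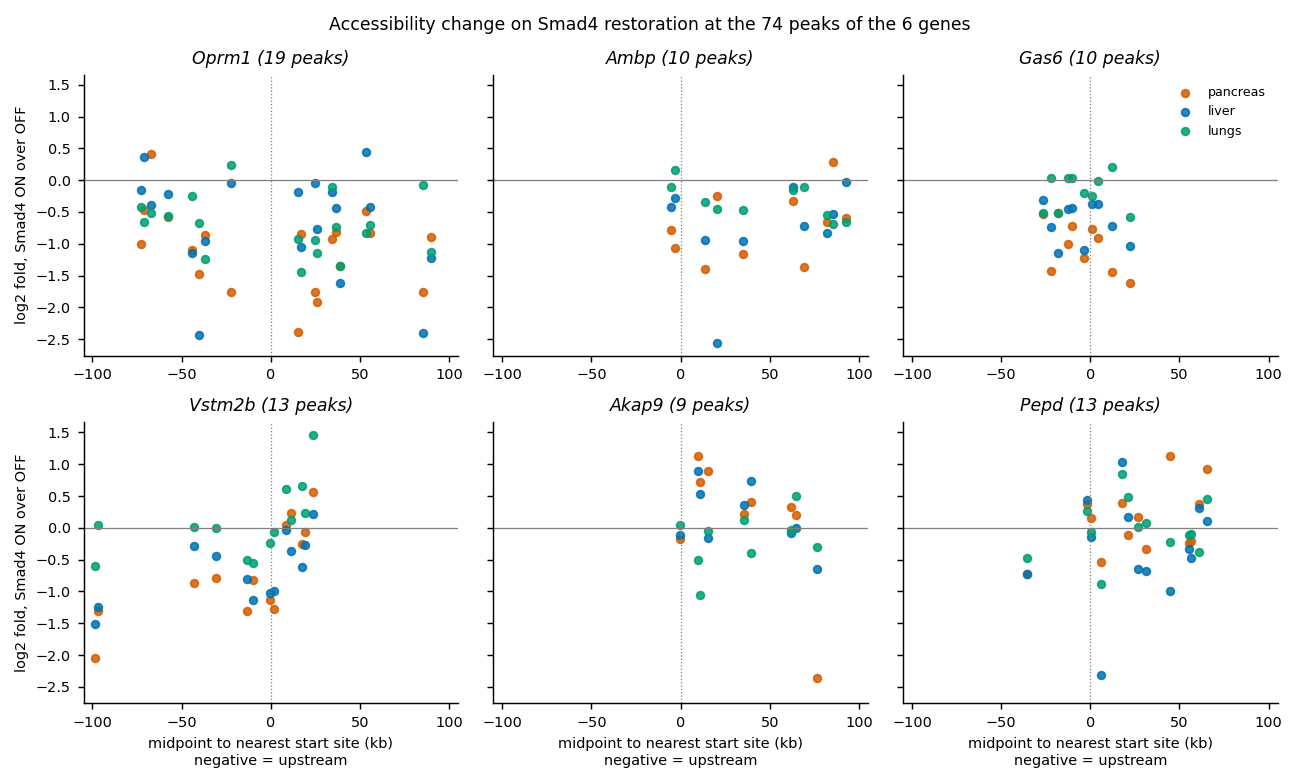
Log2 fold, Smad4 ON over OFF, of each of the 74 peaks against the distance (kb) of its midpoint from the nearest start site, by gene and organ. Most Oprm1, Ambp and Gas6 points lie below 0, with a pancreas median of −0.92, −0.72 and −0.96, while those of Akap9 and Pepd have medians of 0.33 and 0.15.

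Ambp lost 5 of 10 peaks on the averaged comparison (3 without Liv_OFF replicate 1 or Liv_ON replicate 1), and 5 were called lower in the pancreas alone. Among peaks with a mean normalized count of at least 20, the lowest-fold element was chr4:63140220-63140884, intergenic and 13.6 kb from the start. It counted 88.8, 95.6 and 85.2 in Panc_OFF and 37.3, 29.7 and 33.7 in Panc_ON. In the liver it had 320 and 261 against 136 and 165, while in the lungs 92, 173 and 158 overlapped with 89.8, 98.7 and 138. The log2 folds were −1.40, −0.94 and −0.34, and the restored livers stayed above all pancreas samples. It was higher in liver than in pancreas by 1.90 (SE 0.20, adjusted p = 8.66e-07), higher in liver than in lungs by 0.78 (SE 0.20, adjusted p = 0.00351) and higher in lungs than in pancreas by 1.12 (SE 0.18, adjusted p = 0.000251).

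The most accessible Ambp peak was the one nearest the start, chr4:63156622-63157870, 3.1 kb upstream. Its count was 687, 579 and 518 in Panc_OFF and 277, 249 and 320 in Panc_ON. It was 924 and 1066 in Liv_OFF and 756 and 881 in Liv_ON, and 408, 941 and 731 in Lung_OFF against 605, 703 and 925 in Lung_ON. Pancreas and liver samples separated by Smad4 state and lung samples did not. Liver exceeded pancreas by 1.14 (SE 0.18, adjusted p = 4.61e-05), and liver minus lungs was 0.38 (SE 0.18, adjusted p = 0.0905), under the fold threshold. The smallest p for liver against lungs belonged to an intronic peak 82.2 kb downstream, chr4:63071799-63072145, at 86.4, 65.5, 47.8 and 36.6 in the liver against 19.1 to 37.0 in the lungs (1.04, SE 0.24, adjusted p = 0.0017). Ambp is a hepatocyte gene, and the summed hepatocyte markers were also higher in the liver samples, 666 to 796 against 220 to 509 elsewhere. The sum was carried by Apoa1 (534 and 463 in Liv_OFF and Liv_ON, 201 to 306 in the other groups) and Ttr (198 and 220 against 36.7 to 85.5). Alb stood at 17.2 in Liv_OFF beside 17.6 in Panc_OFF and 18.8 in Lung_OFF. The part of these markers in the Ambp values was not tested.

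Gas6 peaks had negative restoration folds at every position in pancreas and liver, with 4 called lower in the pancreas and 5 averaged over organs. Summed over its 10 peaks, Gas6 counted 4599 and 4075 in Liv_OFF and 2836 and 3276 in Liv_ON. The pancreas went from 2079, 2421 and 1893 to 979, 1299 and 963. The lungs had 1228, 2732 and 2351 on Dox and 1610, 2128 and 1893 after withdrawal, which overlap only through Lung_OFF replicate 1, the lowest sample. Of the 10 log2 folds, 10 were negative in pancreas, 10 in liver and 6 in lungs. Without Lung_OFF replicate 1 the median lung fold went from −0.10 to −0.52 and all 10 were negative. The Gas6 counts moved with single samples. The 4 pancreas calls became 0 without Panc_OFF replicate 1, Panc_OFF replicate 2 or Panc_ON replicate 1, 2 without Panc_ON replicate 2 or 3, and 7 without Lung_OFF replicate 1. The 5 averaged calls ranged from 0, without Liv_OFF replicate 1, to 6, without Lung_OFF replicate 1. They stayed above 3 without Panc_ON replicate 2, Lung_OFF replicate 1 or Lung_ON replicate 3, and were 3 or fewer without any of the 13 other samples.

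The widest Gas6 peak spanned the start site, at chr8:13491973-13494810. It counted 338, 581 and 306 in Panc_OFF and 196, 322 and 189 in Panc_ON, which overlapped. In the liver it was 1421 and 1492 against 997 and 1260, and in the lungs 307, 654 and 541 against 345, 499 and 378. Every liver sample exceeded every sample of the other organs, by 1.54 over lungs (SE 0.22, adjusted p = 3.22e-05) and 2.09 over pancreas (SE 0.22, adjusted p = 8.83e-07). The lowest-fold Gas6 peak, chr8:13472366-13472626, was weak: 35.0, 25.9 and 46.3 against 9.78, 22.3 and 5.37 in pancreas, 46.9 and 36.2 against 22.1 and 17.3 in liver, and 12.9, 35.9 and 19.0 against 12.4, 15.3 and 13.1 in lungs. Its averaged fold was −1.08. Its excess in liver over lungs, 0.73 (SE 0.36, adjusted p = 0.096), lost its call in 20 of 27 alternatives.

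Of the 3 promoter peaks among the 74 (midpoint within 1000 bp of a start site), that of Vstm2b was called lower on the averaged comparison. The promoter peak, chr7:40897935-40900258, counted 378, 405 and 361 in Panc_OFF and 130, 166 and 238 in Panc_ON. It had 638 and 639 against 326 and 305 in the liver. Lung counts of 192, 391 and 375 overlapped with 275, 228 and 272. The log2 folds were −1.14, −1.02 and −0.24, and the averaged fold was −0.80 (SE 0.15). Liver exceeded lungs at the promoter by 0.68 (SE 0.19, adjusted p = 0.00655), a call lost with the GC correction and without Lung_OFF replicate 1, and exceeded pancreas by 0.81 (SE 0.19, adjusted p = 0.00136).

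The farthest Vstm2b element, chr7:40799761-40800231, had the lowest fold. It counted 10.2, 27.7 and 17.6 in Panc_OFF and 2.67, 12.4 and 0.766 in Panc_ON, and 139 and 114 in Liv_OFF against 52.4 and 36.6 in Liv_ON. In the lungs 10.1, 54.3 and 15.5 overlapped with 15.7, 14.4 and 10.3. It was higher in liver than in pancreas by 3.07 (SE 0.52, adjusted p = 6.75e-05) and than in lungs by 2.10 (SE 0.52, adjusted p = 0.00255). The strongest Vstm2b element, 42.8 kb upstream at chr7:40853999-40856983, counted 1164, 1014 and 1047 in Panc_OFF and 554, 514 and 707 in Panc_ON. In the liver it had 1999 and 1891 against 1502 and 1717, and in the lungs 758, 1438 and 1145 against 1006, 1094 and 1158. Its liver excess over lungs was 0.71 (SE 0.14, adjusted p = 0.000404), a call lost under quantile normalization at 0.42. Of the 7 upstream peaks 5 were lost and 6 were higher in liver than in pancreas. Of the 6 downstream peaks 1 was lost, 3 were lower and 2 were higher in liver than in pancreas. Over all peaks 3% were lost, 28.8% were higher and 36.6% lower in liver than in pancreas. The 6 lost Vstm2b peaks became 3 without Panc_OFF replicate 2, Liv_OFF replicate 1, Liv_ON replicate 1, Liv_ON replicate 2 or Lung_OFF replicate 2, and were 4 to 6 without any of the others.

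**Figure D3:**
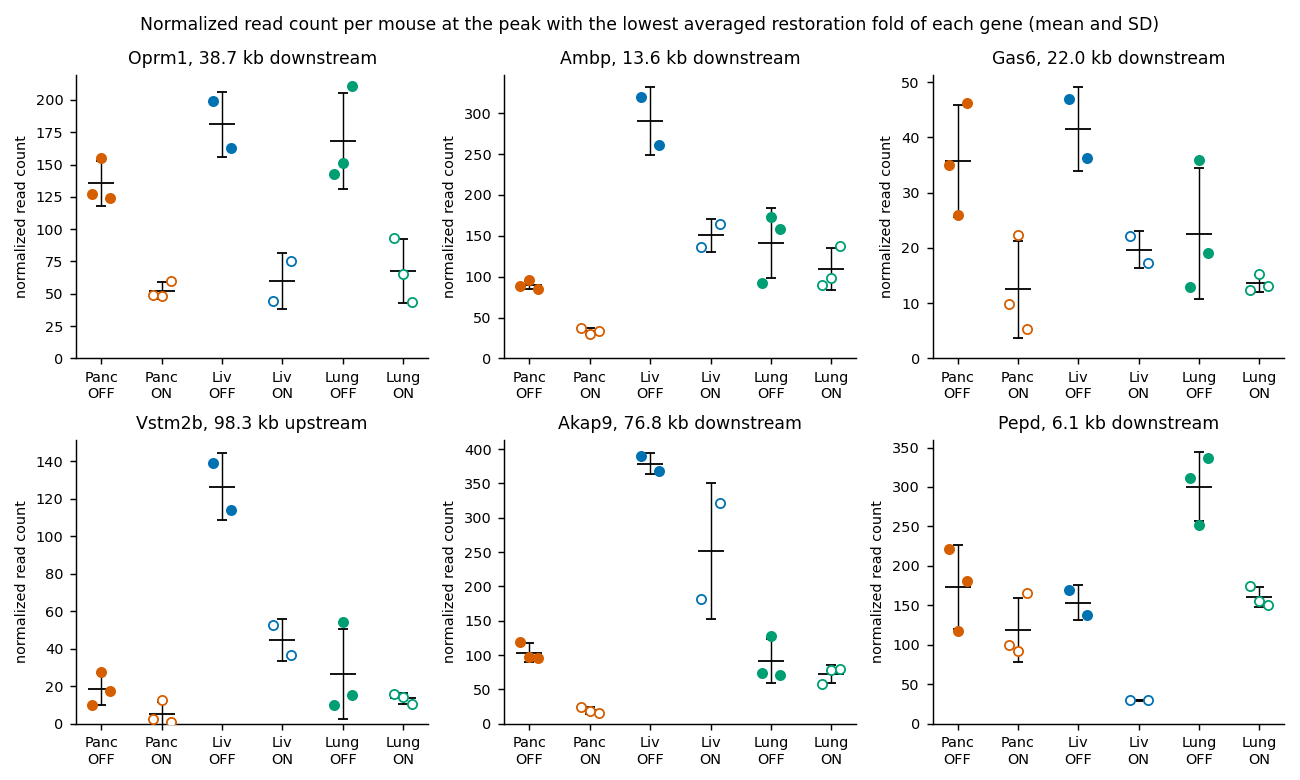
Normalized read count of each mouse (points, filled for Smad4 OFF and open for Smad4 ON) with group mean and SD. Each panel is the lowest-fold peak of a gene among peaks with a mean normalized count of at least 20. In the Oprm1 panel restored samples lie below Smad4 OFF samples in all 3 organs, whereas the lung groups overlap in the panels of Ambp, Gas6, Vstm2b and Akap9.

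Akap9 held 1 lost element among 9. At chr5:4004705-4005406, 76.8 kb into the gene, the count went from 119, 96.5 and 95.4 in Panc_OFF to 24.9, 18.6 and 15.3 in Panc_ON, a log2 fold of −2.36. It was 390 and 368 against 181 and 322 in the liver, and 73.6, 128 and 71.5 against 57.3, 78.6 and 80.2 in the lungs. Liver exceeded lungs by 1.92 (SE 0.23, adjusted p = 6.25e-06) and pancreas by 2.73 (SE 0.23, adjusted p = 1.29e-07). The promoter peak, chr5:3927304-3929120, stayed between 462 and 907 in all 16 samples, with an averaged fold of −0.08 (SE 0.08).

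A second Akap9 intron element marked the liver without a loss on restoration. At chr5:3938757-3939460, 10.8 kb into the gene, the liver counted 128 and 346 on Dox and 270 and 343 after withdrawal. The pancreas counted 5.98, 2.68, 5.56, 4.44, 14.9 and 7.66, and the lungs 13.8, 26.1, 12.9, 10.1, 7.67 and 5.6. No liver sample overlapped with another organ, and the differences, 4.36 over lungs (SE 0.38, adjusted p = 5.54e-07) and 5.17 over pancreas (SE 0.38, adjusted p = 6.05e-08), were the largest of the 74 peaks.

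Pepd had its lowest fold in the liver, at the intronic peak chr7:34917624-34919344, 6.1 kb from the start. The count fell from 169 and 138 to 30.3 and 29.5 in the liver, a log2 fold of −2.32. In the lungs the count was 312, 252 and 337 against 175, 156 and 150, without overlap, and in the pancreas 222, 117 and 181 overlapped with 99.6, 91.6 and 165. Where the Ambp, Vstm2b and Akap9 elements were higher in liver, this one was lower: liver minus lungs was −1.67 (SE 0.21, adjusted p = 8.31e-06) and liver minus pancreas −1.02 (SE 0.21, adjusted p = 0.000343). The promoter peak, chr7:34912075-34913168, counted 589 to 995 over the 16 samples, with an averaged fold of −0.02 (SE 0.07).

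The other lost Pepd peak lay 35.4 kb upstream, at chr7:34876835-34877164. The 2 became 1 without any of 11 samples, all but Panc_ON replicates 2 and 3, Liv_ON replicate 2 and Lung_OFF replicates 1 and 3. The single member peak called higher lay 17.9 kb downstream in Pepd, at chr7:34929796-34930854. It counted 310, 517 and 387 against 480, 495 and 586 in pancreas, 70.3 and 50.2 against 157 and 95.5 in liver, and 237, 69.6 and 177 against 312, 356 and 157 in lungs. Only the liver groups did not overlap. Liver minus pancreas was −2.39 there (SE 0.30, adjusted p = 4.6e-06). Both peaks are named because Pepd had only 2 lost peaks and 1 called higher, and not by the rule for named peaks.

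By organ, restoration calls were unevenly spread. In the pancreas 18 of the 74 peaks were called lower (24.3%, beside 3.06% of all peaks): 5 of Oprm1, 5 of Ambp, 4 of Gas6, 3 of Vstm2b and 1 of Akap9. The liver had 2 (2.7%, beside 0.0886%), the lowest-fold peaks of Oprm1 and Pepd. The lungs had 0 (beside 0.0022%), with 12 of 74 at an unadjusted p under 0.05 (16.2%, beside 7.11%), 4 called lower by DESeq2 (beside 0.399%) and 0 by edgeR. In limma 0 member peaks were called higher in pancreas (beside 0.364%), liver (beside 0.462%) or lungs (beside 0.00146%). All restored samples lay below all Smad4 OFF samples at 35 peaks in pancreas (beside 13.3% of all peaks), 40 in liver (beside 22.9%) and 12 in lungs (beside 4.82%), of which 7 were of Oprm1. The median log2 fold over the 74 peaks was −0.72, −0.43 and −0.23 in pancreas, liver and lungs, beside 0.04, 0.02 and −0.00 over all peaks. The pancreas count fell to 8, 6 and 9 without Panc_OFF replicate 1, Panc_OFF replicate 2 and Panc_ON replicate 1, and the liver count ranged from 0 to 5 over left-out samples.

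Summed over all of its peaks, Oprm1 separated Smad4 states in every organ: 1598, 1631 and 1718 against 660, 742 and 1006 in pancreas, 1601 and 1559 against 800 and 1306 in liver, and 1898, 1256 and 1398 against 1114, 875 and 680 in lungs. The mean sum fell by 51.3%, 33.3% and 41.4%. Ambp, Gas6 and Vstm2b separated in pancreas and liver, where the mean sum fell by 34.4% and 29.3%, 49.3% and 29.5%, and 43.1% and 29.8%. In the lungs their sums overlapped and fell by 14.8%, 10.8% and 3.8%. These overlaps came only through Lung_OFF replicate 1 (1823, 1228 and 1220). The highest restored lung sums were 1931, 2128 and 1780. Without that sample the median lung fold went from −0.40 to −0.42 for Ambp and from −0.10 to −0.52 for Gas6. It went from 0.01 to −0.23 for Vstm2b, and for Oprm1 from −0.71 to −0.34. Akap9 overlapped in each organ, at 1091 to 1654 in pancreas, 1827 to 2278 in liver and 1329 to 1656 in lungs. Pepd sums were higher in the restored pancreas, 2736 to 3054 against 2472 to 2574, and lower in the restored liver, 1945 and 2140 against 2393 and 2394.

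The difference in response between organs was itself fitted as an interaction. It is built from the restoration values by which the genes were chosen, so its values are a description and nothing is read from the counts against all peaks. In limma 0 of the 74 peaks, and 0% of all 136630, were called for any pair of organs. For lungs minus pancreas, 19 of the 74 (14973 of all peaks) had an unadjusted p under 0.05, DESeq2 called 4 higher (beside 1.15% of all peaks) and edgeR called 0. For liver minus pancreas 10 (5403 of all), and for liver minus lungs 4 (7171 of all), had an unadjusted p under 0.05, and both other tools called 0. The deviations of lung samples correlated by replicate number. With a replicate block in the lungs only, which the main fit did not hold, 6 of the 74 were called higher, beside 1.27% of all peaks. With the block in every organ the count was 1, beside 0.142%. A higher value is a smaller loss in the lungs than in the pancreas. The 6 were Ambp at 69.4 kb (1.26, SE 0.31) and 3.1 kb (1.23, SE 0.24), Gas6 at 12.0 kb (1.65, SE 0.35) and 12.7 kb (1.03, SE 0.26), Vstm2b at 42.8 kb (0.88, SE 0.20) and Akap9 at 76.8 kb (2.06, SE 0.38). Oprm1 and Pepd had 0. Without the block, leaving out Lung_OFF replicate 2 gave 6 calls (beside 2.93% of all peaks in either direction) and leaving out Lung_OFF replicate 1 gave 0, as with all samples. No sample was left out under the block.

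Between organs the 74 peaks tilted toward the liver, as the lost peaks of the whole table did. The summed tumor epithelium markers were also higher in every liver sample (15804 to 21071 against 8370 to 14254 elsewhere) and the fibroblast markers lower (852 to 998 against 1047 to 2680). Krt18 and Krt19 carried the epithelial sum, while Sox9 means were 2951 and 2874 in liver beside 2856 to 3500 elsewhere. Col1a1 carried most of the fibroblast sum, and Dcn means in liver (17.3 and 16) were level with those in lungs (18.4 and 15.7). The part of these markers in the organ differences was not tested. Against lungs, 29 of the 74 peaks were higher (39.2%, beside 23.5% of all peaks) and 18 lower in liver (24.3%, beside 29.1%). Against pancreas, 35 were higher (47.3%, beside 28.8%) and 22 lower (29.7%, beside 36.6%). Lungs against pancreas gave 10 higher (13.5%, beside 13.1%) and 9 lower (12.2%, beside 16.5%), a split that became 17 and 9 with the GC correction. Gas6 was one-sided, with 7 of 10 peaks higher in liver than in lungs, 7 higher than in pancreas and 0 lower in either. Ambp had 6 higher and 1 lower than in pancreas, Vstm2b 8 and 3, Akap9 4 and 1, Oprm1 6 and 10 and Pepd 4 and 7.

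The peaks called lower on restoration and the rest differed in their counts. Of the 30 peaks called lower, 17 were higher and 2 lower in liver than in lungs (56.7% and 6.67%). Of the 44 other peaks 12 were higher and 16 lower (27.3% and 36.4%). For liver against lungs the whole table had the same form, so it is not particular to these genes: 59.3% of all 4105 peaks called lower were higher in liver and 7.87% were lower. Against pancreas, 60% of the 30 were higher and 16.7% lower in liver, beside 73.3% and 6.46% of the 4105. For lungs against pancreas, 16.7% of the 30 were higher and 3.33% lower, beside 34.5% and 3%.

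**Figure D4:**
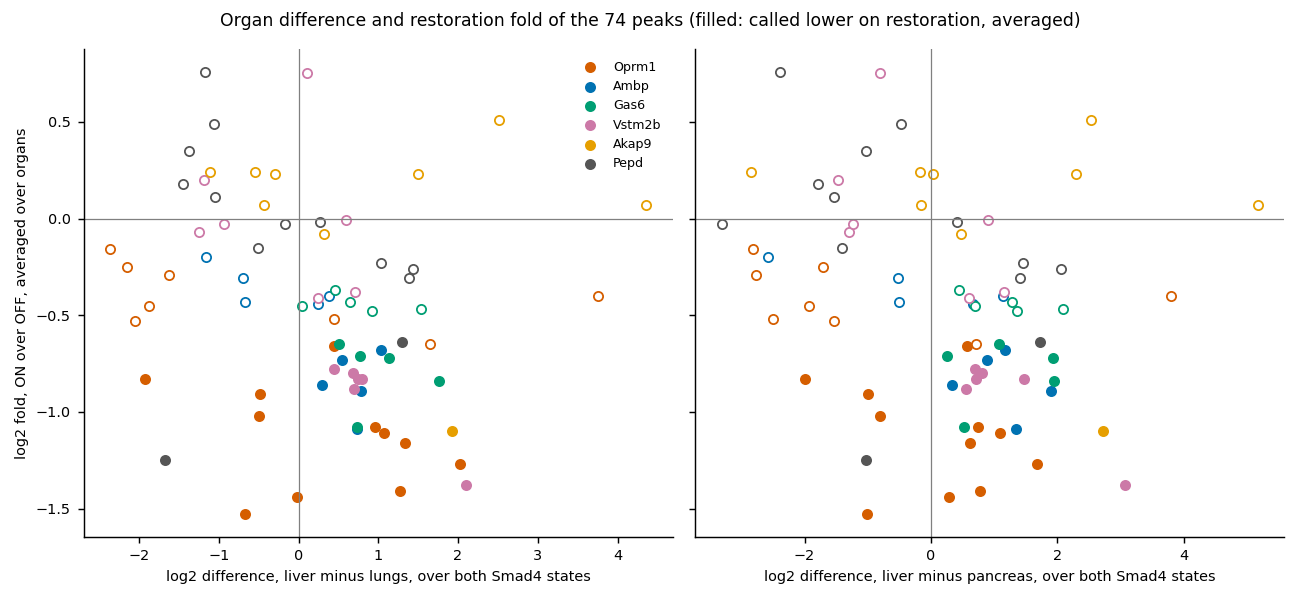
Averaged log2 restoration fold of the 74 peaks against their log2 organ difference over both Smad4 states, for liver minus lungs and liver minus pancreas. Of the 30 filled points (called lower on restoration), 17 were called higher and 2 lower in liver than in lungs.

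The 100 kb limit left out 26 peaks, 1 of Oprm1 and 25 of Vstm2b, more than the 13 Vstm2b peaks inside it. The farthest Oprm1 peak inside it, 89.8 kb from the start, had an averaged fold of −1.08 at a mean count of 17.7. The 1 Oprm1 peak beyond it, 171.6 kb away, had −1.14 at a mean count of 8.42 and was called lower. For Vstm2b the farthest peak inside, at 98.3 kb, had −1.38, and the first of 25 beyond it, at 130.3 kb, had −0.37 and was not called. Of these 25 peaks 0 were called in either direction, 15 had a negative fold and the median was −0.29 (range −0.95 to 0.98), at a median mean count of 16.8. The other 4 genes had 0 peaks beyond the limit.

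Around Oprm1 the other peaks within 1 Mb had lower medians after restoration too, by less, which was not so in a wider window. The windows left out only peaks assigned within 100 kb, so they hold the Oprm1 peak 171.6 kb away and Vstm2b peaks beyond 100 kb. Among the 86 other peaks within 1 Mb of Oprm1, 16 were called lower on the averaged comparison and 0 higher (18.6%, beside 3%). Their median deviation from the mean of the 16 samples, ON minus OFF, was −0.33, −0.28 and −0.15 in pancreas, liver and lungs, against −0.98, −1.18 and −0.85 for the Oprm1 peaks. The mean of the organs was −0.253 within 1 Mb and −0.008 within 3 Mb. The next gene with a peak, Rgs17, an inhibitor of G-protein signaling, had 2 of 13 peaks called lower, and Gm10945 on the other side had 0 of 1 (−1.07). Within 1 Mb of the other genes 7 of 215 peaks were lower and 12 higher for Ambp, 2 and 1 of 125 for Gas6, 0 and 1 of 41 for Vstm2b, 5 and 8 of 154 for Akap9, and 7 and 2 of 132 for Pepd. Beside Ambp, Kif12, a kinesin motor, had 3 of 3 peaks called lower in the pancreas and 2 averaged, and Zfp618 had 3 of 23. Beside Gas6, Tmem255b had 1 of 3 and 1700029H14Rik 0 of 7, and beside Pepd, Chst8 had 1 of 7 and Cebpg 0 of 13. The flanks of Vstm2b and Akap9 had 0 lower and 4 higher, in Gm4884 (1), Mterf1a (2) and Cyp51 (1). Medians over the whole chromosomes stayed between −0.20 and 0.14 in all samples.

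**Figure D5:**
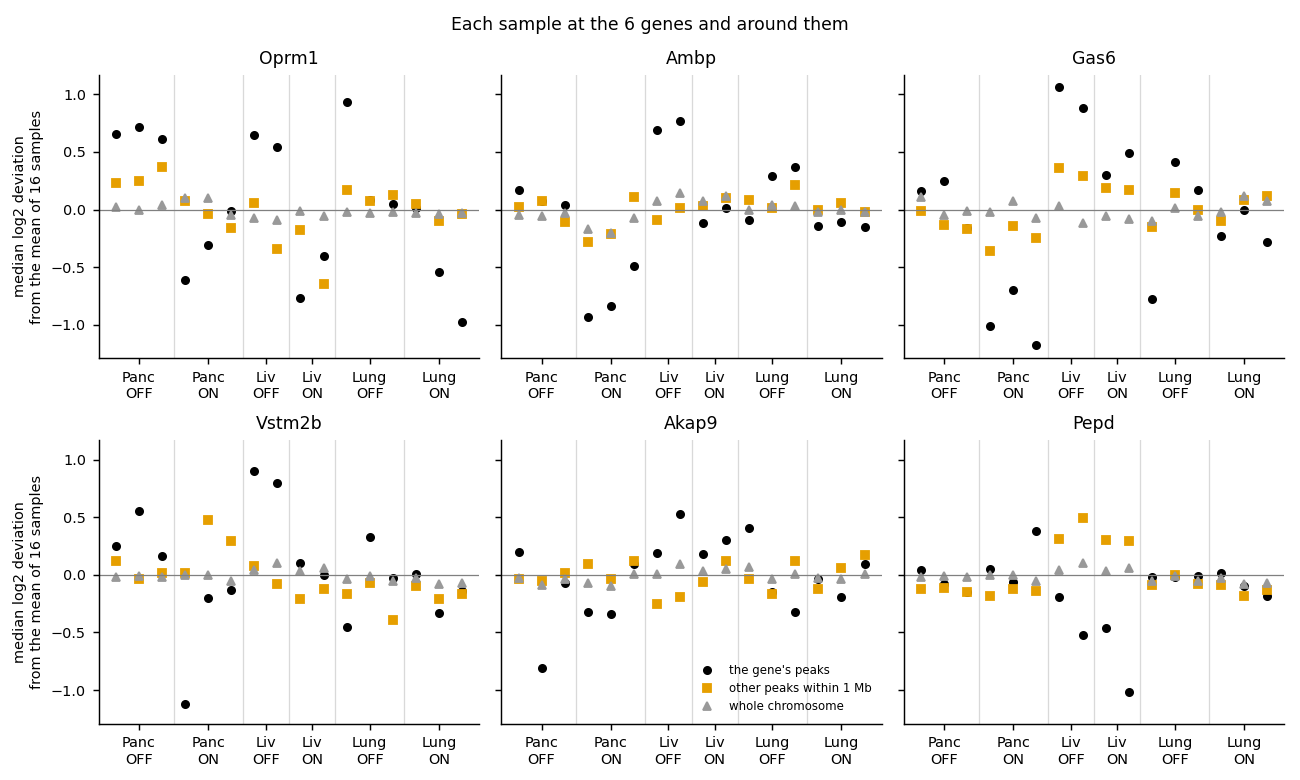
Median log2 deviation of each sample from the mean of the 16 samples, over the peaks of each gene, over other peaks within 1 Mb and over the whole chromosome. At Oprm1 the gene's peaks range from −0.98 to 0.93 and the surrounding peaks from −0.65 to 0.37, while the chromosome stays within −0.09 to 0.10.

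Genes related to the 6 by pathway or family were called at about the share of all peaks. Of 28 such genes 26 had peaks, and of their 130 peaks 5 were called lower (3.85%, beside 3%) and 4 higher (3.08%, beside 3.61%) on the averaged comparison (median 0.02). In the opioid system 2 of 22 peaks were lower, both at Oprd1, the delta opioid receptor: the promoter peak at −0.86 (SE 0.12) and a peak 13.0 kb upstream at −0.58 (SE 0.15). The 2 called higher were at Pnoc, the precursor of the opioid-like peptide nociceptin (0.79 and 1.15). At Axl, Tyro3, Mertk and Pros1, the receptors of Gas6 and its relative protein S, 0 of 27 peaks were called in either direction. The heavy chain family Itih1 to Itih5, some of which bikunin is joined to, had 18 peaks. Of these, 1 was lower at Itih3 (−0.87) and 1 higher at Itih5 (0.61). Among Akap9 partners Cdk5rap2, a centrosomal protein, had 1 higher (1.07) of 24. In proline and peptide turnover 2 of 31 were lower, both at Aldh4a1 (−0.61 and −0.61), an enzyme of proline breakdown, and Vstm2a and Vstm2l had 0 of 8.

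The 74 peaks resembled other peaks in width (median 654 bp, beside 589 bp) and GC content (47.8%, beside 45.8%). More were in introns (60.8%, beside 42.2%) and fewer at promoters (4.05%, beside 9.76%). Short motifs were counted on both strands over the whole peak, with overlaps between motifs allowed: TGTGGTT for RUNX, GGAATG for TEAD, AGATAA for the GATA factors, TGTTTAC for FOX, CCGGAAG for ETS, GGGTGTGG or GGGCGTGG for KLF, CAAAGTCC for HNF4, and HNF1. The next shares are for the 30 lost peaks, the 44 others, all 4105 lost peaks and all nuclear peaks, in that order. The AP-1 motif was in 36.7%, 70.5%, 24.4% and 51.4%. GATA letters were in 56.7%, 34.1%, 39% and 35.4%, and RUNX letters in 33.3%, 11.4%, 19.7% and 22.8%. SMAD letters were in 73.3%, 88.6%, 74.8% and 75.3%, and TEAD letters in 43.3%, 59.1%, 43% and 39.8%. FOX letters were in 10.8% of the 74 peaks (all peaks 14.1%), KLF in 9.46% (13.1%), ETS in 6.76% (6.56%), HNF4 in 4.05% (5.17%) and HNF1 in 0 (0.248%). Peaks differ in width and share genes, so these shares are descriptions without a test.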

How the data were processed

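ATAC-seq was analyzed in 16 samples of 6 groups, taken from the sample titles. Column names give Dox status, read as Smad4 OFF with the drug and ON after its withdrawal; lung columns name another day than the labels. The deposited values are a signal, the normalized read count per peak. The authors aligned trimmed reads (Bowtie2, mm10), merged nearby MACS2 peaks into 1 atlas, and scaled the reads counted in each peak by DESeq2 size factors. The filter on the table, the transposase shift of read ends and the removal of duplicates are not given in the sources used here. Unremoved duplicates would understate counting error. Size factors rest on a mostly stable table, which limits organ comparisons.

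Values came in whole steps of 1 read per sample (100% within 0.001 of a read), so reads were recovered. Of 136631 rows, 1 mitochondrial row (1.43% to 3.56% of reads) was left out. Coordinates are 1-based. Sequence and promoters are from RefSeq GRCm38.p6, the same build; 6 of 6 genes matched a promoter.

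limma 3.58.1 (R 4.3.3, trend and robust) was run on log2(count + 1) with a mean per group, and p-values were adjusted by Benjamini-Hochberg over all 136630 peaks. The genes and lists were chosen with earlier results of these data known. Named peaks of each gene were the nearest to the start, the lowest averaged fold and the smallest liver-to-lung p among peaks with a mean count of at least 20, and those just inside and beyond 100 kb. Alternatives were a pseudocount of 10, a count filter, TMM, quantile and GC correction, edgeR 4.0.16 and DESeq2 1.42.0 on those reads, a replicate block, stricter thresholds (1 and 0.05), a fit restricted to the compared groups, a limit of 50 kb and leaving out each sample. The lung-only block was chosen after seeing the data. The scripts were tested on simulated data. In a simulated pancreas comparison, 27% of 100 planted log2 folds of 1 and 99% of 100 of 2 were recovered. False calls made up 10.6% of all calls there. A further allele of the tumor cells is not reported here.

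Lung pairs of the same replicate number correlated in their deviations (0.491, 0.124 and 0.214), while pancreas (−0.33, 0.0271 and −0.33) and liver (0.0834) pairs did not. Each sample was a separate mouse, and the main fit treated all samples as unpaired. A block by replicate number was run only as an alternative.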

Additional observations from a re-analysis of the deposited data

How the results depend on the processing

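Of 332 values under alternatives, 292 were within the limits set for no change and 40 moved. Of the organ comparisons, 47 called peaks between liver and lungs became 29 with start sites within 50 kb (40 to 50 over left-out samples), and 19 between lungs and pancreas became 7 at thresholds of 1 and 0.05 (15 to 26); 57 between liver and pancreas stayed within 1.5 times (52 to 59). The 31 averaged restoration calls became 10 at the stricter thresholds and ranged from 15 to 32 over left-out samples, with 20, 16 and 15 without Panc_OFF replicate 2, Liv_OFF replicate 1 and Liv_ON replicate 1. The 18 pancreas calls ranged from 6 to 27, with 8, 6, 9 and 27 without Panc_OFF replicate 1, Panc_OFF replicate 2, Panc_ON replicate 1 and Lung_OFF replicate 1. The 2 liver calls became 1 with edgeR, with only the groups compared, with the replicate block (alone or with the GC correction) and at the stricter thresholds, and 5 with DESeq2. They ranged from 0 (without Liv_OFF replicate 1 or Liv_ON replicate 1) to 5 (without Lung_OFF replicate 1), with 4 without Lung_OFF replicate 2 and 1 without any of the 3 Panc_OFF samples, Panc_ON replicates 1 and 2, Liv_OFF replicate 2 or Lung_ON replicate 2. The 0 lung calls became 4 with DESeq2 (0 to 0 over left-out samples).

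The lungs minus pancreas interaction, 0 calls, became 4 with DESeq2, 1 with the replicate block and 6 with the replicate block in the lungs only, and ranged from 0 to 6 over left-out samples (6 without Lung_OFF replicate 2). The other interactions were 0 under every alternative run. With a 3 Mb window, the mean ON minus OFF deviation of the surroundings went from −0.253 to −0.008 for Oprm1 and from −0.085 to 0.025 for Gas6. In the central 200 bp of the peaks, 33.8% held AP-1, 45.9% SMAD, 2.7% KLF, 9.46% RUNX, 17.6% TEAD, 0% ETS and 16.2% GATA letters. The cause of these movements was not tested. With 2 livers per group and a median of 36 to 76 reads per peak, the smallest change that could be detected in the liver or at weak peaks was not tested.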
